A study of Rattus norvegicus with 6 samples.

Results

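Txnip, 4 related arrestin-domain genes (Arrdc1, Arrdc2, Arrdc3 and Arrdc4) and the transcription factor genes Mlx, Mlxip and Mlxipl were followed in rat heart-derived cells that had received an siRNA against eIF3m. These 8 genes were chosen by symbol, with earlier results of these data known, so their levels and fold changes are given as a description and without a p-value. All 8 symbols were found among 31038 gene rows. With the eIF3m siRNA, Txnip was about 2-fold higher, Arrdc2 about 2-fold higher and Arrdc3 about 3-fold higher than with the control siRNA, and Mlx was about 20% lower. Arrdc1 and Mlxip differed by less than 10%, and Arrdc4 and Mlxipl were at or near 0 counts.

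The RNA came from cells labelled NRVM, a name that the labels leave unspelled, with embryonic rat myocardium given as their source and DMEM with serum as their medium. Libraries 1, 2 and 3 of the first group had received a control siRNA (named siNT), and libraries 1, 2 and 3 of the second group an siRNA against eIF3m (si-eIF3m), a subunit of the translation initiation factor eIF3. All 6 had been treated with an siRNA, and no strain, age, siRNA sequence or time after transfection is given. The labels do not say that replicates were separate cultures, so errors and p-values reflect the spread among these libraries alone, which may be technical. The glucose concentration of the medium is not given in the labels. Their protocol text also describes dexamethasone, isobutylmethylxanthine and insulin feeding, with no word on whether these cells received it.

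Txnip protein binds thioredoxin, the small protein that keeps cysteines of other proteins reduced, and it lowers glucose uptake by promoting internalisation of glucose transporters. It belongs, with the Arrdc proteins, to the alpha-arrestins, adaptors that bring membrane proteins to ubiquitin ligases of the NEDD4 family. Txnip and Arrdc4 are textbook targets of MondoA, the product of Mlxip, and of its relative ChREBP, the product of Mlxipl. Each of these factors binds DNA as a heterodimer with Mlx and is activated by glucose 6-phosphate and related sugar phosphates. MondoA is the main form in muscle, and ChREBP in liver and fat.

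Total counts were 7437285 to 8603602 in the control libraries and 10061575, 2156186 and 7901395 in eIF3m libraries 1, 2 and 3. Levels are CPM, counts relative to the library total after TMM scaling, a correction for differences in composition. Eif3m itself stood at 137, 136 and 141 CPM in control libraries 1, 2 and 3 and at 91.7, 83.9 and 87.3 CPM in eIF3m libraries 1, 2 and 3. Of 14 cardiomyocyte markers, 8 had a control mean below 1 CPM, among them Myh6 (0.741 ± 0.105 CPM, SD, n = 3) and Myh7 (0.0881 ± 0.0769). The summed markers stood at 422 to 428 CPM in controls and 181 to 198 CPM with the eIF3m siRNA. Tnnt2 made most of that sum, at 365 ± 8.84 and 152 ± 8.39 CPM. Of the 4 tested, Tnnt2 and Pln (25 ± 2.13 and 3.34 ± 1.35 CPM) were called lower. Nkx2-5 (20.3 ± 2.47 and 21.4 ± 2.45 CPM) and Gata4 (8.68 ± 1.24 and 10.2 ± 3.51 CPM) were not called. Myod1 and Myog, myogenic factors of skeletal muscle, stood at 15.9 ± 2.46 and 19.3 ± 2.63 CPM in controls. The 11 skeletal myoblast markers summed to 142 to 150 CPM in controls and 81.0 to 91.0 CPM with the eIF3m siRNA. Of these 11, 4 had a control mean below 1 CPM, among them Pax7, with 0 counts in every library, and Myf5 (0.0472 ± 0.0817 CPM). Of 7 tested, 6 were called lower, Myog among them, and Myod1 was not called. The library of eIF3m replicate 1 stood apart: 8 blood and leukocyte markers summed to 6230 CPM there, against 34.0 to 233 CPM in the other 5 libraries, and 8 endothelial markers to 180 CPM, against 8.85 to 21.6 CPM. The 9 fibroblast markers summed to 13800 to 14400 CPM in controls and 14700 to 15200 CPM with the eIF3m siRNA. Col1a1 made most of that sum, at 12000 ± 91.6 and 13200 ± 176 CPM. The fibroblast markers did not move one way. Of 7 tested, 4 were called higher, and Thy1 (481 ± 1.59 to 328 ± 3.73 CPM) and Ddr2 (615 ± 12.3 to 460 ± 31.7 CPM) lower. Among the higher, Dcn stood at 55.4, 2.21 and 1.8 CPM in eIF3m libraries 1, 2 and 3. The part of these differences in the results below was not tested. The values of the tested members and the counts of each gene list below are also given without eIF3m replicate 1. So is any other gene named below whose call was lost there. In bulk RNA, fewer cells of a type and less RNA per cell cannot be told apart.

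Txnip had 790, 870 and 910 counts in control libraries 1, 2 and 3, or 112, 111 and 112 CPM. It had 2696, 467 and 1819 counts in eIF3m libraries 1, 2 and 3, or 257, 206 and 218 CPM. The 3 control values nearly coincided, every eIF3m library lay above them, and the library of eIF3m replicate 1 was the highest. The mean rose from 112 ± 0.445 to 227 ± 26.6 CPM (SD over the 3 libraries of a group), which edgeR put at 1.04 ± 0.07 SE on the log2 scale for eIF3m over control, or 2.05-fold. Without eIF3m replicate 1 the log2 fold change was 0.95. Relative to the control mean, Txnip stood at 2.30, 1.85 and 1.96-fold in eIF3m libraries 1, 2 and 3.

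Arrdc3, an alpha-arrestin known for its part in the internalisation and degradation of cell surface proteins such as integrin beta 4, was at 32.5, 32.5 and 30.9 CPM in control libraries 1, 2 and 3. In eIF3m libraries 1, 2 and 3 it was at 97.5, 98.9 and 108 CPM. The groups were far apart, and the library of eIF3m replicate 1, highest for Txnip, was the lowest of its group for Arrdc3. The mean rose from 32.0 ± 0.976 to 102 ± 5.87 CPM, a log2 fold change of 1.67 ± 0.06 SE (3.19-fold), and without eIF3m replicate 1 the value was 1.72. In order of log2 fold change from the highest, Arrdc3 was number 85, Arrdc2 number 307 and Txnip number 349 among 12724 genes tested.

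Arrdc2, a less studied alpha-arrestin, had the fewest counts of the 6 genes tested, with 52, 53 and 44 counts (7.36, 6.76 and 5.41 CPM) in control libraries 1, 2 and 3 and 149, 29 and 114 counts (14.2, 12.8 and 13.7 CPM) in eIF3m libraries 1, 2 and 3. All eIF3m values lay above all control values. The eIF3m libraries were close to each other, though counting error at such counts is larger than their spread. The mean rose from 6.51 ± 0.999 to 13.6 ± 0.707 CPM (log2 fold change 1.08 ± 0.17 SE, 1.05 without eIF3m replicate 1).

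Arrdc1, which recruits Tsg101 to the plasma membrane and takes part in the budding of small vesicles there, was at 44.1, 46.5 and 50.9 CPM in control libraries 1, 2 and 3 and at 43.2, 45.0 and 42.6 CPM in eIF3m libraries 1, 2 and 3. The groups overlapped, with the eIF3m library of replicate 2 above the control library of replicate 1. The means were 47.2 ± 3.43 and 43.6 ± 1.28 CPM, a log2 fold change of -0.13 ± 0.07 SE that did not pass. It was 0.02 with no scaling factors and -0.12 without eIF3m replicate 1.

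Arrdc4, the alpha-arrestin closest to Txnip in its known control by MondoA, had 0 counts in 5 libraries and 8 counts in the library of eIF3m replicate 1. Those 8 counts were worth 0.763 CPM (95% Clopper-Pearson interval 0.329 to 1.5 CPM, counting error only). A count of 0 allows up to 3 counts, which was 0.369 to 0.424 CPM in the control libraries and 1.32 and 0.360 CPM in eIF3m libraries 2 and 3. The only library with counts was also the one with the high blood and endothelial markers, whose part was not tested. Arrdc4 was not tested, so these data give no fold for it.

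**Figure D1:**
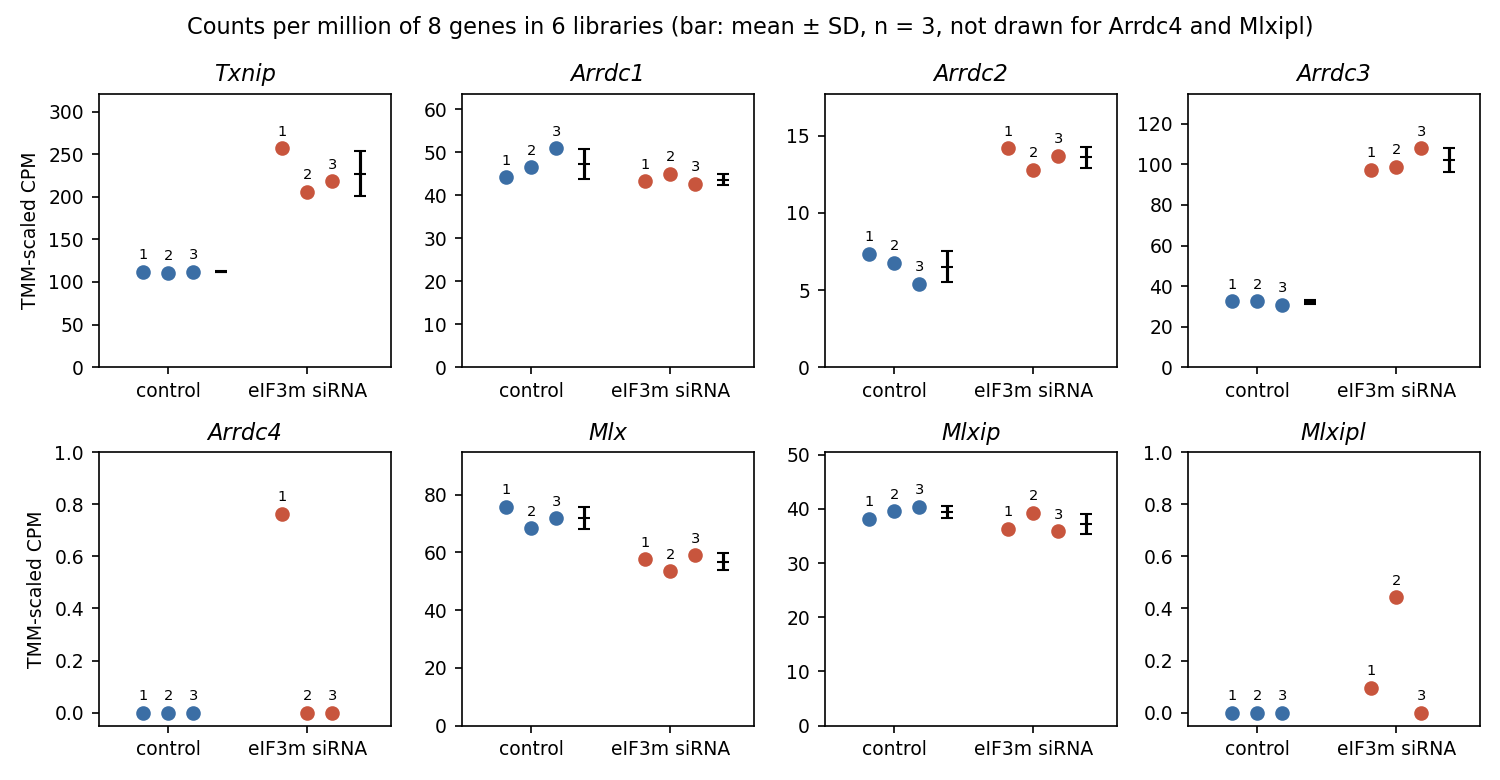
TMM-scaled CPM of each of the 8 genes on the vertical axis, in control (blue) and eIF3m siRNA (red) libraries numbered by replicate. The axis starts at 0 with a scale of its own in each panel, except for Arrdc4 and Mlxipl, which share a scale that starts just below 0. Bars give the mean ± SD of 3 libraries and are not drawn for Arrdc4 and Mlxipl. Txnip, Arrdc2 and Arrdc3 lie higher in all 3 eIF3m libraries than in any control, Mlx lies lower, Arrdc1 and Mlxip overlap, and Arrdc4 and Mlxipl are at 0 in all 3 controls.

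The promoters of the arrestin-domain genes are shown because MondoA with Mlx binds sites built from the E box CACGTG, and because Arrdc2 and Arrdc3 both rose while Arrdc4 did not come above a few counts. RefSeq promoters on build GRCr8, which differs from the rn6 build of the counts, were matched for 7 of 8 genes, all but Txnip. Each line gives the 250 bases before the annotated start, 5′ to 3′ on the strand of the gene, at chr16:18635633-18635882, plus strand for Arrdc2, chr2:12872952-12873201, plus strand for Arrdc3 and chr1:131793426-131793675, minus strand for Arrdc4. Capitals mark the E box CACGTG and the CCAAT box, read as CCAAT or, on the other strand, ATTGG.
Arrdc2: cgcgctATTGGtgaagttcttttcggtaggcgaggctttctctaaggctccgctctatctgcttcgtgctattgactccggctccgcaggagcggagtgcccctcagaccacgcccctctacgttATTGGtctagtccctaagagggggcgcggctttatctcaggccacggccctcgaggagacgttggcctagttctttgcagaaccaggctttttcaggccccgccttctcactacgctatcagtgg
Arrdc3: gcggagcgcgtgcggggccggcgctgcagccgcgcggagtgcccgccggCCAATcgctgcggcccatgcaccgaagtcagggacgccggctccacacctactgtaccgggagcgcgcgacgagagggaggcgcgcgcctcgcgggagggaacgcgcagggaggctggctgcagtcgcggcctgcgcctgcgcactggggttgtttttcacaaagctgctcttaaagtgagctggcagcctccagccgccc
Arrdc4: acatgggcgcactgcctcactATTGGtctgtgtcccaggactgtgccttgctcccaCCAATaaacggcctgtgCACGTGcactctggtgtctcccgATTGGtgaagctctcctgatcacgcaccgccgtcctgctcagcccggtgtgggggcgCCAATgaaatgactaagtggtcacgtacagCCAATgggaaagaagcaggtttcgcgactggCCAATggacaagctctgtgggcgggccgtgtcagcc
The E box occurred 1 time in the Arrdc4 window, starting 177 bases before the start, and in neither the Arrdc2 nor the Arrdc3 window. Of the other members, Mlx had 1 match, starting at 70 bases. Among 27457 rat promoter windows of the same length, 5.79% held the E box. CCAAT boxes were found 6 times in the Arrdc4 window, 2 times in that of Arrdc2 and 1 time in that of Arrdc3, none overlapping the E box, and 34.3% of all windows held at least 1. The FoxO motif TGTTTAC, read on both strands and held by 3.25% of all windows, was in none of the windows of the 7 matched genes. A match or its absence describes these letters in this window and nothing about binding. Whether such matches bear on which genes rose was not tested, and Txnip had no window to read.

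Mlx, the shared partner of MondoA and ChREBP, was at 75.8, 68.3 and 71.8 CPM in control libraries 1, 2 and 3. In eIF3m libraries 1, 2 and 3 it was at 57.7, 53.4 and 59.0 CPM. Every eIF3m library lay below every control. The mean fell from 72.0 ± 3.77 to 56.7 ± 2.92 CPM (log2 fold change -0.32 ± 0.06 SE, also -0.32 without eIF3m replicate 1, and -0.18 with no scaling factors). Mlx overlaps Psmc3ip in the RefSeq table, and reads of the overlap cannot be assigned with certainty, the strand setting of the counting being not given in the sources used here. Psmc3ip itself was at 3.89 ± 0.354 CPM in controls and 5.76 ± 1.62 CPM with the eIF3m siRNA.

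Mlxip, which encodes MondoA, was at 38.2, 39.6 and 40.4 CPM in control libraries 1, 2 and 3 and at 36.3, 39.3 and 35.9 CPM in eIF3m libraries 1, 2 and 3. The groups overlapped, and the means were 39.4 ± 1.13 and 37.2 ± 1.86 CPM. Its log2 fold change of -0.10 ± 0.08 SE did not pass, and it was 0.04 with no scaling factors and -0.09 without eIF3m replicate 1. Mlxipl, which encodes ChREBP, had 0 counts in the 3 control libraries and 1, 1 and 0 counts in eIF3m libraries 1, 2 and 3, under the 3 counts taken as the floor. In the RefSeq table Arrdc1, Arrdc3 and Mlxip each overlap an uncharacterised locus, which the files do not list under that name.

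Of the 6 members tested, 3 were called higher and 1 lower. Of all 12724 genes tested, 38.7% were called, 17.4% higher and 21.2% lower (edgeR quasi-likelihood test, Benjamini-Hochberg adjusted p under 0.05 over all genes), and 2.62% were called higher with at least a 2-fold change. The eIF3m libraries lay wholly above the controls for 3 of the 6 members and for 23.3% of all genes, and wholly below for 1 member and for 25.3% of all genes. Since the members were chosen with this contrast known, nothing is read from their share. The calls of all 6 were the same in each of 14 alternatives of scaling, filter, tool, block and left-out library.

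**Figure D2:**
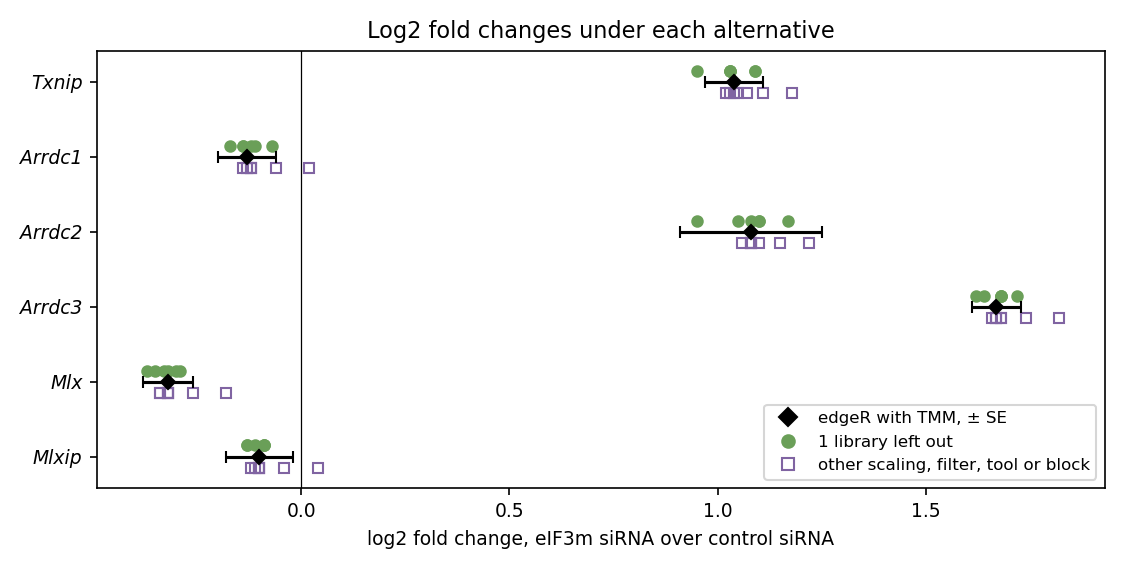
Log2 fold change of eIF3m over control siRNA on the horizontal axis for the 6 genes tested. Diamonds give the edgeR value with TMM scaling ± SE, green points leave out 1 library each, and open squares use another scaling, filter, tool or the replicate block. Txnip spans 0.95 to 1.18, Arrdc2 0.95 to 1.22 and Arrdc3 1.62 to 1.82, Mlx stays between -0.37 and -0.18, and Arrdc1 and Mlxip turn to 0.02 and 0.04 with no scaling factors.

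Ratios of counts within a library need no scaling between libraries, though their size also depends on transcript length and only their change can be read. Arrdc3 counts per Txnip count were 0.291, 0.293 and 0.276 in control libraries 1, 2 and 3 and 0.379, 0.480 and 0.496 in eIF3m libraries 1, 2 and 3. The mean ratio was 0.287 ± 0.00946 in controls and 0.452 ± 0.0633 with the eIF3m siRNA, with no overlap, so Arrdc3 moved further than Txnip in each eIF3m library, least so in that of replicate 1. Arrdc2 counts per Txnip count were 0.0658, 0.0609 and 0.0484 in control libraries and 0.0553, 0.0621 and 0.0627 in eIF3m libraries, which overlapped. Txnip counts per Mlx count were 1.47, 1.63 and 1.56 in control libraries and 4.46, 3.86 and 3.70 in eIF3m libraries, a mean of 1.55 ± 0.0763 against 4.0 ± 0.40. Mlxip counts per Mlx count were 0.504, 0.579 and 0.563 in control libraries and 0.630, 0.736 and 0.608 in eIF3m libraries. The mean was 0.549 ± 0.0399 in controls and 0.658 ± 0.0683 with the eIF3m siRNA. Arrdc1 counts per Mlx count also lay higher in every eIF3m library, with means of 0.657 ± 0.0665 and 0.771 ± 0.0637. Of these genes Mlx was called, as lower, and Mlxip and Arrdc1 were not called.

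**Figure D3:**
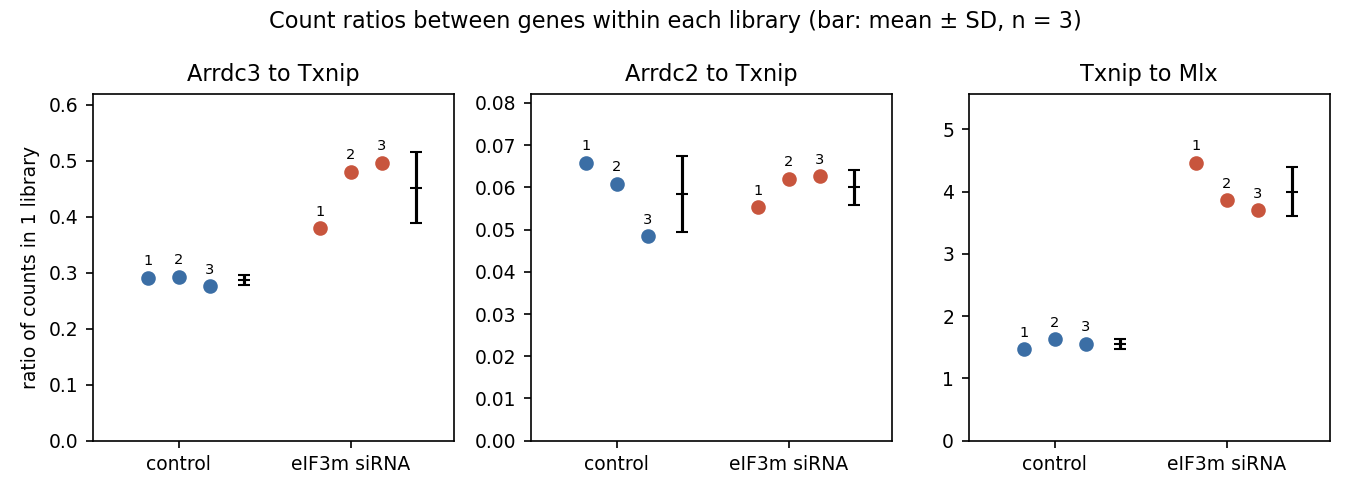
Count of one gene divided by the count of another in the same library, on a vertical axis from 0, for control (blue) and eIF3m siRNA (red) libraries numbered by replicate, with the mean ± SD of 3. The Arrdc3 to Txnip and Txnip to Mlx ratios lie higher in every eIF3m library, and the Arrdc2 to Txnip ratio overlaps between the groups.

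Spread within the groups was taken over 3 libraries each and includes counting error. The coefficient of variation of Txnip was 0.399% in controls and 11.7% with the eIF3m siRNA, where replicate 1 was the highest. For Arrdc3 it was 3.05% and 5.78%, for Mlx 5.25% and 5.14% and for Arrdc2 15.3% and 5.21%. Counting error weighs most on Arrdc2, with 44 to 53 counts in controls and 29 in eIF3m library 2. For the eIF3m libraries of Arrdc2 counting error exceeds 5.21%, so that value understates the spread to be expected of them. For the 790 to 910 control counts of Txnip counting error exceeds 0.399%, so that value understates the spread to be expected of its controls. Over the 6 libraries, log2(CPM + 1) of Txnip correlated with that of Arrdc3 (Pearson r = 0.977), Arrdc2 (0.966), Arrdc1 (-0.664), Mlxip (-0.725) and Mlx (-0.901). The libraries fall into 2 groups, so these values mostly restate the difference between the siRNAs and carry no p.

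Txnip was compared with 9784 tested genes that had a mean of at least 5 CPM. Placeholder symbols, those starting with LOC, RGD, AABR or AC and a digit, were left out. The 5 most like Txnip over the 6 libraries were Rgcc, a regulator of the cell cycle (r = 0.9971), Slc25a28, a mitochondrial iron carrier (0.9958), Rrm2, a ribonucleotide reductase subunit (0.9954), Phrf1, a ring finger protein (0.9949), and Mybl2, a transcription factor of dividing cells (0.9948). Each was highest in the library of eIF3m replicate 1. Rgcc stood at 56.3, 57.6 and 56.7 CPM in control libraries and 85.8, 76.8 and 76.7 CPM in eIF3m libraries. Their own changes were smaller than that of Txnip, from a log2 fold change of 0.23 for Phrf1 to 0.90 for Mybl2. With no scaling factors 1 of these 5 remained among the top 5. By rank correlation 0 of the 5 did, but 48 genes shared the order of Txnip exactly and ties were ordered by name. That 0 therefore says nothing about the 5 genes. A total of 385 of the 9784 genes had r of at least 0.95, among which Arrdc3 was number 125 and Arrdc2 number 222.

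Other genes that MondoA or ChREBP are known to control did not move one way. The list pools targets of both factors, and Mlxipl had 0 or 1 counts in each library. The list is therefore no measure of MondoA alone. Of 20 listed, 15 were tested, 5 rose and 3 fell, and their median log2 fold change was -0.01, against 0.01 over all genes. Pfkfb3, which makes the activator of phosphofructokinase, rose from 75.1 ± 1.59 to 103 ± 1.73 CPM (0.45 ± 0.05 SE, adjusted p = 4.27e-06). Tkt, transketolase, rose from 262 ± 2.90 to 326 ± 5.76 CPM (0.31 ± 0.04), and Scd, a fatty acid desaturase, rose by 0.37 ± 0.12. The 3 that fell were Hk2, the hexokinase of muscle (-0.51 ± 0.07), Bhlhe40, a transcriptional repressor (-0.42 ± 0.05), and Fasn, fatty acid synthase (-0.13 ± 0.05). Scd missed the threshold without control replicate 2 (0.37) or 3 (0.32) or eIF3m replicate 3 (0.22). Fasn missed it without control replicate 1, 2 or 3 (-0.14, -0.14 and -0.13) or eIF3m replicate 3 (-0.10), and was not called with upper-quartile scaling (-0.06) or with no scaling factors (0.01). The count of risen genes was 3, 2 and 3 without control replicates 1, 2 and 3, 3 without eIF3m replicate 2 or 3, and 5, with 3 fallen, without eIF3m replicate 1. With DESeq2 it was 2, Scd among those lost.

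A list of the MYC, MAX and MXD network was taken because Mxd1, Mxi1, Mxd4 and Mnt dimerise with Max and some of them also with Mlx. All 10 genes listed were tested, with 3 risen and 3 fallen and a median of 0.03. The repressors Mxd4 (88.6 ± 2.50 to 66.0 ± 3.75 CPM, log2 fold change -0.41 ± 0.06 SE) and Mnt (79.6 ± 1.15 to 61.9 ± 1.07 CPM, -0.36 ± 0.05) fell, as did Mycn (-0.27 ± 0.06, not called at -0.13 with no scaling factors). Mxi1 (0.25 ± 0.09), Mxd3 (0.83 ± 0.29) and Mycl (0.72 ± 0.26) rose, the last pair from under 5 CPM. Mxi1 missed the threshold without control replicate 2 (0.18) or 3 (0.24) or eIF3m replicate 1 (0.26) or 3 (0.23). Mxd3 missed it without control replicate 1 (0.91) or 3 (0.62) or eIF3m replicate 1, 2 or 3 (0.89, 0.76 and 0.87), and Mycl without control replicate 2 (0.56) or 3 (0.63) or eIF3m replicate 1 (0.66) or 3 (0.62). None of the 3 rises was called without eIF3m replicate 1, where 3 fell, without eIF3m replicate 3 or with DESeq2, and 1 was called without control replicate 2 and 0 without control replicate 3. Myc (443 ± 11 and 418 ± 6.20 CPM) and Max (56.3 ± 3.39 and 54.2 ± 3.33 CPM) did not pass, at -0.08 ± 0.04 and -0.03 ± 0.07, values that were 0.06 and 0.11 with no scaling factors; with limma-voom Myc was called lower at -0.08 (adjusted p = 0.0482, in a range over its 14 alternatives of 0.0482 to 0.772).

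Among thioredoxins, their reductases, peroxiredoxins and proteins known to bind Txnip, 3 rose and 6 fell of 15 tested, with a median of -0.14, and 3 rose and 4 fell without eIF3m replicate 1. Txn1, the cytosolic thioredoxin that Txnip binds, was at 163, 169 and 151 CPM in control libraries 1, 2 and 3 and at 158, 168 and 174 CPM in eIF3m libraries 1, 2 and 3. Its groups overlapped, and the log2 fold change of 0.05 ± 0.06 SE did not pass (adjusted p = 0.533), whereas with no scaling factors it was 0.19 and passed. Txnrd1, the cytosolic thioredoxin reductase, rose from 522 ± 13.9 to 641 ± 41.0 CPM (0.29 ± 0.04), and Txnrd2, its mitochondrial counterpart, fell from 78.4 ± 3.96 to 43.1 ± 2.73 CPM (-0.84 ± 0.06, adjusted p = 7.19e-08). The 3 eIF3m libraries, at 43.6, 40.2 and 45.6 CPM, lay well below the lowest control for Txnrd2, at 76.0 CPM. The peroxiredoxins, which thioredoxin recycles, went both ways, with Prdx2 risen (0.22 ± 0.04) and Prdx3 (-0.26 ± 0.05) and Prdx5 (-0.27 ± 0.05) fallen. Ddit4, which encodes Redd1, a protein known to form a complex with Txnip, rose from 44.7 ± 5.98 to 58.8 ± 8.27 CPM (0.43 ± 0.10, and 0.29 without eIF3m replicate 1). With no scaling factors 5 rose and 2 fell, and Prdx3 (-0.11) was no longer called.

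A list of genes for glucose uptake and for handling of glucose 6-phosphate, the sugar signal of MondoA, also holds the insulin receptor gene Insr and 5 genes of the energy-sensing kinase AMPK (Prkaa1, Prkaa2, Prkab1, Prkab2 and Prkag1), none of which was called. It counted 2 risen and 9 fallen of 20 tested, with a median of -0.16 (0 risen and 8 fallen without eIF3m replicate 1), but 5 risen and 4 fallen with no scaling factors and 4 and 4 with upper-quartile scaling. Slc2a4, the insulin-regulated glucose transporter Glut4 of muscle and fat, was at 33.7, 40.5 and 35.4 CPM in control libraries 1, 2 and 3 and at 14.2, 13.2 and 12.6 CPM in eIF3m libraries 1, 2 and 3. Its groups were far apart, and the mean fell from 36.5 ± 3.53 to 13.3 ± 0.810 CPM (-1.44 ± 0.11 SE, adjusted p = 7.29e-08). Slc2a1, the widespread transporter Glut1, overlapped between the groups, at 20.9 ± 1.37 and 20.6 ± 2.91 CPM (0.03 ± 0.11, adjusted p = 0.875), and was -0.02 without control replicate 1 and -0.03 without eIF3m replicate 1. Hk2 fell from 143 ± 11.6 to 99.5 ± 6.52 CPM, and it is counted here as well as among the targets above. Hk1 (-0.19 ± 0.05) and Gys1, muscle glycogen synthase (-0.57 ± 0.07), also fell, Hk1 losing its call at -0.12 under upper-quartile scaling and at -0.04 with no scaling factors. The 2 that rose, Slc2a3 (1.78 ± 0.55) and Slc2a12 (1.33 ± 0.48), had control means below 1 CPM and stood at 5.34 and 3.24 CPM in the library of eIF3m replicate 1. Slc2a3 did not pass without control replicate 1 (1.74) or 2 (1.58) or eIF3m replicate 1 (0.50), nor Slc2a12 without control replicate 1 (1.37) or 2 (0.94) or eIF3m replicate 1 (0.79). Slc2a3 also missed the threshold with limma-voom (1.51), and Slc2a12 with DESeq2 (1.28) or no filter (1.26).

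The alpha-arrestins act through NEDD4-family ubiquitin ligases. In a list of these ligases and of the beta- and visual arrestins and Vps26 proteins, which share the arrestin fold, with the sorting gene Tsg101, 2 rose and 5 fell of 14 tested, with a median of 0.06 (7 risen and 3 fallen with no scaling factors). Nedd4 stood at 1200, 1210 and 1210 CPM in control libraries 1, 2 and 3 and at 948, 938 and 983 CPM in eIF3m libraries 1, 2 and 3. The eIF3m libraries were all lower, and the mean fell from 1210 ± 6.54 to 956 ± 23.8 CPM (-0.34 ± 0.02 SE, adjusted p = 4.12e-08). The ligases Smurf1 (-0.38 ± 0.05) and Wwp2 (-0.46 ± 0.09) and the retromer subunit Vps26b (-0.24 ± 0.06) fell as well, the last losing its call with no scaling factors (-0.10). The ligase Hecw2 rose from 4.63 ± 0.749 to 8.74 ± 1.45 CPM (0.88 ± 0.22), and Arrb2, beta-arrestin 2, rose by 0.58 ± 0.16 but did not pass without eIF3m replicate 1 (0.45), where 1 gene of the list rose and 5 fell. Arrdc5, another alpha-arrestin, had 0 counts in the 6 libraries.

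Txnip and arrestin-domain genes are also known to respond to glucocorticoids and to FoxO factors. In a list of genes that these induce, with the receptor and the factors themselves, 3 rose and 8 fell of 21 tested, with a median of -0.14 (2 rose and 8 fell without eIF3m replicate 1, and 7 rose with no scaling factors). Sesn3, a FoxO target that restrains mTORC1, was at 101, 94.7 and 83.1 CPM in control libraries 1, 2 and 3 and at 184, 176 and 191 CPM in eIF3m libraries 1, 2 and 3. The groups did not overlap, and the mean rose from 93.1 ± 9.28 to 184 ± 7.68 CPM (0.99 ± 0.07 SE, adjusted p = 1.47e-08). Foxo1 (0.75 ± 0.23) and Sesn1 (0.65 ± 0.21) also rose, Foxo1 missing the threshold without control replicate 1 (0.55) or eIF3m replicate 1 (0.62) and Sesn1 without control replicate 3 (0.51) or with DESeq2 (0.67). The muscle ubiquitin ligases Fbxo32 (17.1 ± 2.00 to 4.37 ± 0.722 CPM, -1.89 ± 0.17) and Trim63 (52.7 ± 3.16 to 28.0 ± 1.81 CPM, -0.93 ± 0.08), both FoxO targets, fell, as did the kinase gene Sgk1 (-0.48 ± 0.05) and Cebpb (-0.44 ± 0.04). Nr3c1, the glucocorticoid receptor, fell from 114 ± 3.66 to 90.8 ± 4.93 CPM (-0.32 ± 0.05).

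**Figure D4:**
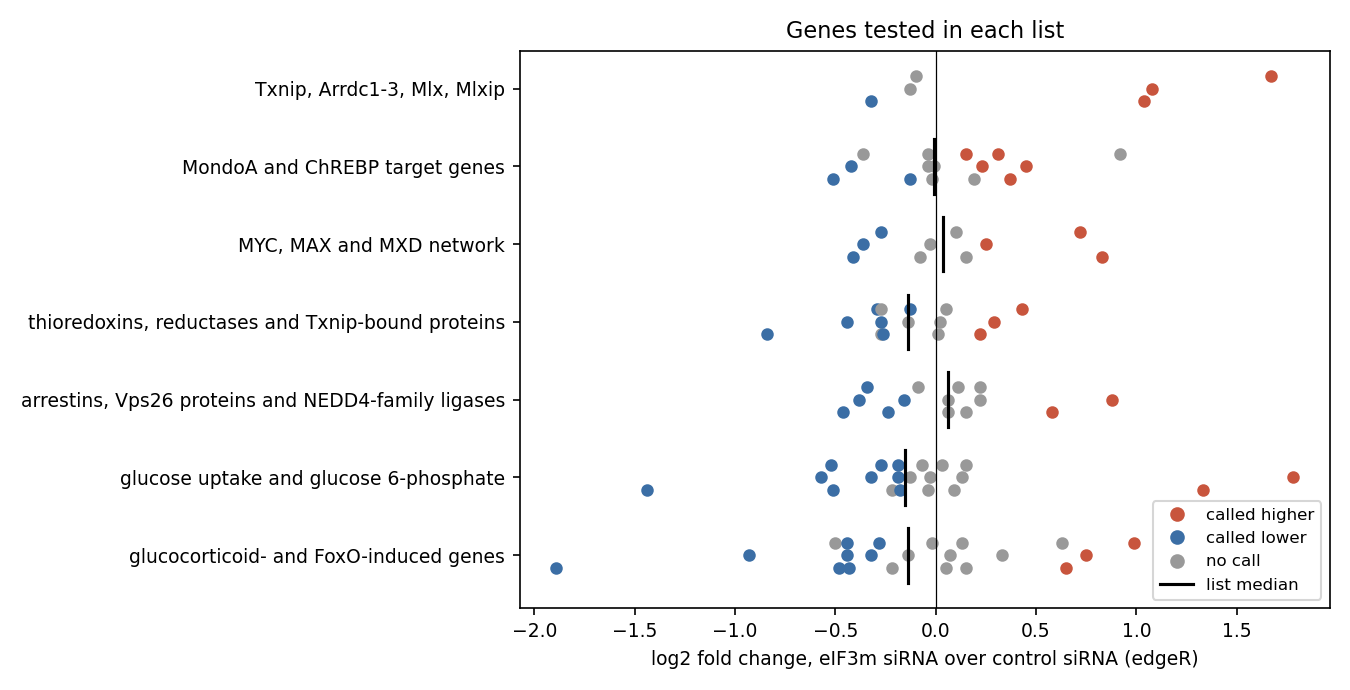
Log2 fold change of eIF3m over control siRNA on the horizontal axis for each gene tested in each list, with the 6 tested genes of the Txnip, Arrdc and Mlx group on top. Red points were called higher, blue points lower and grey points not called, and black lines give list medians. Txnip, Arrdc2 and Arrdc3 lie at 1.04 to 1.67, and the medians of the other lists lie between -0.16 and 0.06, with the 5 and 4 glucose genes called higher and lower under no scaling factors against the 2 and 9 drawn.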

How the data were processed

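RNA from 6 libraries of rat cells was sequenced, 3 with control siRNA and 3 with eIF3m siRNA, grouped and numbered by their titles. The authors deposited raw counts as whole numbers, not normalised. HISAT2 2.2.1, Trimmomatic 0.40, featureCounts, limma, DESeq2 and build rn6 appear, per the submitters' processing notes, with roles, annotation and the settings for strand and multiply mapped reads not given in the sources used here. Symbols turned into calendar dates (27 rows, 0.203% to 0.216% of counts) were left out.

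Genes were kept by edgeR's filterByExpr (minimum count 10, minimum total 15), leaving 12724 of 22068 genes with a count. The test was that of edgeR 4.0.16 under R 4.3.3 (TMM, quasi-likelihood F-test, two-sided, no covariate, Benjamini-Hochberg adjusted p under 0.05). SE is the size of the log2 fold change divided by the square root of F. The steps were tested on simulated data with far fewer changed genes, directions drawn at random and no odd library. That test cannot speak to the scaling of these data or to the library of eIF3m replicate 1. Members and lists were chosen with earlier results of these data known. The rule for named genes takes the members, Eif3m, the 5 genes most like Txnip, in each list up to 5 called genes with the lowest p and every called gene of a direction that 3 or fewer took, and Txn1, Slc2a1, Hk2, Myc, Max, Ddit4, Nr3c1 and Nedd4. Of the genes that the rule takes, 1 is not reported here. Psmc3ip and the marker genes were named for their bearing on a result. Alternatives were other scalings, no filter, DESeq2 1.42.0, limma-voom (limma 3.58.1), robust dispersion, a replicate block and each library left out. Replicates of a group differed by more than sampling noise (chi-square per degree of freedom 1.83 to 9.13).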

Additional observations from a re-analysis of the deposited data

How the results depend on the processing

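Txnip, Arrdc2, Arrdc3 and Mlx kept their direction and call in all 14 alternatives, and 3 members were called higher and 1 lower in each. Arrdc1 and Mlxip, not called in any, turned from -0.13 and -0.10 to 0.02 and 0.04 with no scaling factors. That setting moved the median log2 fold change of all genes from 0.013 to 0.157, with 4126 genes called higher and 1684 lower in place of 2220 and 2700, so that 71.0% of calls were higher, against 45.1% with TMM and 58.6% with upper-quartile scaling. Of 107 distinct genes in the 6 lists 94 were tested, with 18 called higher and 33 lower. Over all genes tested 17.4% were called higher and 21.2% lower. The list counts were 35 and 20 with no scaling factors, and 10 were called higher with DESeq2. Leaving out 1 library each gave 11 to 16 called higher, with 11 without control replicate 2 and 11 without eIF3m replicate 1. It gave 26 to 32 called lower. With no scaling factors Fasn (0.01), Myc (0.06) and Max (0.11) changed sign, and Max was also at 0.04 with upper-quartile scaling. Txn1 was at -0.00046 without control replicate 3, and Slc2a1 at -0.02 without control replicate 1 and -0.03 without eIF3m replicate 1, in a range of -0.03 to 0.09 over left-out libraries. Of the 5 genes most like Txnip, 5 were shared with a pseudocount of 0.1 CPM and 1 with no scaling factors. By Spearman correlation 0 were, where 48 genes tied with Txnip and were ordered by name, so the overlap cannot be read. For 48 other named genes, 615 of 672 alternatives kept direction and call, 48 lost the call, 2 gained it and 7 changed sign; the cause was not tested. Deviations of same-numbered libraries from their group means correlated at 0.027, -0.012 and 0.013, and not every library correlated best with its own number. With 3 libraries per group, these values cannot settle whether same-numbered libraries were paired. With the replicate block 2123 genes were called higher and 2632 lower, and Mxi1 (0.23), Mycl (0.64) and Slc2a12 (1.12) lost their calls among the named genes. The smallest library, eIF3m replicate 2, sets the floor of 1.32 CPM for a count of 0 and limits Arrdc4 and Mlxipl.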
